A study of Mus musculus with 8 samples.

Results

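Macrophages of the diabetic mouse kidney were followed through 10 genes that are widely used to mark these cells, *Adgre1*, *Csf1r*, *C1qa*, *C1qb*, *C1qc*, *Cd68*, *Lyz2*, *Mrc1*, *Msr1* and *Trem2*. They were taken by gene symbol from the 55401 genes of the deposited expression table, and 10 of the 10 were among the 15150 genes with enough signal to be tested. The table covers kidney RNA from 8 diabetic mice with 1 library per mouse, of which 4 received recombinant FGF4 (rFGF4) and 4 served as controls. The sample labels give the control group as a *db*/*db* model, in which the leptin receptor is defective, and give the other group only as rFGF4 treated, whereas the paper describes the sequenced kidneys as coming from STZ-induced diabetic mice, in which the toxin streptozotocin destroys the insulin-producing cells. Nothing in the files tells these models apart. In both models of the study, adult male mice were injected intraperitoneally every other day for several weeks with a non-mitogenic variant of human FGF4 or with PBS, so the control group is called vehicle below. Both groups were diabetic and no healthy kidney was included. The labels give the tissue only as kidney and give no age of the mice, and the study's methods describe RNA extraction from the renal cortex without saying whether this covers the sequenced RNA.

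Macrophages are phagocytes that reside between the tubules and around the glomeruli, and they accumulate in diabetic kidney disease. They depend on the receptor CSF1R for survival, take up debris through scavenger receptors, degrade it in lysosomes and are a major source of C1q, the protein that starts the classical complement cascade. In RNA from bulk tissue, fewer macrophages and less RNA of a gene per macrophage cannot be told apart. Levels are given as FPKM, the sequenced fragments per length of exon and per mapped reads of the library, which can be compared between genes because the length of the gene is divided out.

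The macrophage genes differed more among mice of the same group than between the groups. Summed over the 10 genes, the level was 1285, 462, 129 and 85.5 FPKM in rFGF4 mice 1, 2, 3 and 5 and 47.4, 330.2, 59.5 and 1816 FPKM in vehicle mice 2, 3, 4 and 5. Each group thus held 1 kidney with a very high level, 1 intermediate kidney and 2 low ones. The highest library was rFGF4 mouse 1 for 5 genes and vehicle mouse 5 for the other 5, and these libraries were the top pair for 10 of 10 genes, compared with 32.0% of all tested genes. The lowest library was vehicle mouse 2 for 6 genes and vehicle mouse 4 for 4, and 1 of this pair was also the lowest for 37.8% of all tested genes. For 9 of the 10 genes rFGF4 mouse 2 and vehicle mouse 3 came next after the top pair, the exception being *Mrc1*.

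**Figure D1:**
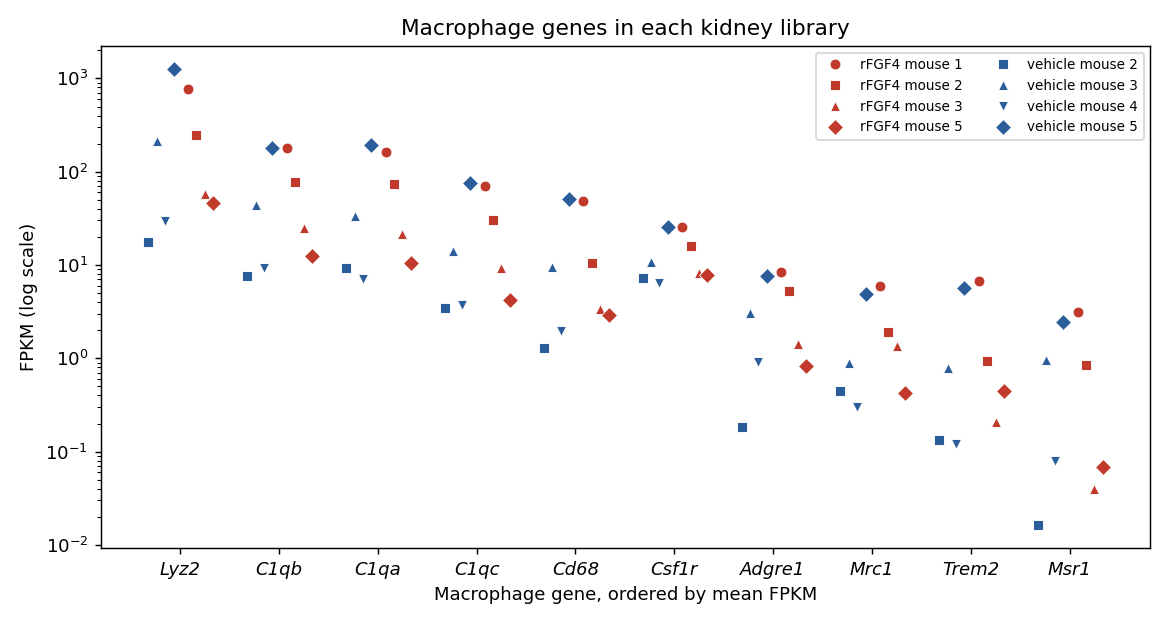
FPKM (log scale) of each macrophage gene in each library, with rFGF4-treated mice in red, vehicle-treated mice in blue and the mouse number given by the symbol. In every gene rFGF4 mouse 1 and vehicle mouse 5 lie on top, and the ranges of the 2 groups overlap.

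*Adgre1* encodes F4/80, the surface antigen most used to stain mouse macrophages. Its level was 8.39, 5.27, 1.41 and 0.821 FPKM in rFGF4 mice 1, 2, 3 and 5 and 0.184, 3.05, 0.903 and 7.55 FPKM in vehicle mice 2, 3, 4 and 5. Vehicle mouse 2 was the lowest and the groups overlapped. *Csf1r*, the receptor for the survival factors CSF1 and IL-34, had 25.8, 16.1, 8.24 and 7.80 FPKM in the rFGF4-treated mice and 7.20, 10.7, 6.42 and 25.4 FPKM in the vehicle-treated mice, in the same order of mouse numbers. It had the smallest range of the 10 genes, 4.02-fold, and no kidney fell below 6.42 FPKM. In the GENCODE M21 annotation the exons of *Csf1r* overlap those of *Hmgxb3* on the other strand, and as the counting is not stated to use strand, reads of the pair cannot be told apart. The exons of the other 9 genes overlap no other gene in that annotation.

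The C1q genes encode the 3 chains of the complement protein and neighbour each other in the genome. *C1qa* had 163, 73.2, 21.3 and 10.5 FPKM in the rFGF4-treated mice and 9.23, 33.4, 7.05 and 193 FPKM in the vehicle-treated mice. *C1qb* had 181, 78.0, 25.2 and 12.6 FPKM with rFGF4 and 7.61, 44.2, 9.39 and 181 FPKM with vehicle. *C1qc* had 71.1, 30.2, 9.26 and 4.26 FPKM with rFGF4 and 3.49, 14.1, 3.70 and 74.8 FPKM with vehicle. The chains were high and low in the same kidneys, over ranges of 21.5-fold for *C1qc*, 23.8-fold for *C1qb* and 27.4-fold for *C1qa*, and both groups reached from near the bottom to near the top of each range.

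*Lyz2* encodes lysozyme, which macrophages, monocytes and neutrophils make, and *Cd68* a glycoprotein of the lysosomal membrane. *Lyz2* was the most abundant of the 10 genes, with 771, 245, 58.1 and 45.7 FPKM in the rFGF4-treated mice and 17.8, 213, 29.6 and 1269 FPKM in the vehicle-treated mice. Both the highest and the lowest value lay in the vehicle group. Its mean was 280 ± 339.9 FPKM (SD, n = 4) with rFGF4 and 382 ± 598 FPKM (SD, n = 4) with vehicle, so that the arithmetic mean was higher with vehicle while the mean on the log2(FPKM + 1) scale was higher with rFGF4 by 0.44. The close relative *Lyz1*, with which reads can be shared, amounted to at most 3.43% of *Lyz2* in any library. *Cd68* had 49.0, 10.4, 3.39 and 2.88 FPKM with rFGF4 and 1.29, 9.47, 1.95 and 51.2 FPKM with vehicle. The means of *Cd68* were 16.4 ± 22.0 FPKM (SD, n = 4) and 16.0 ± 23.8 FPKM (SD, n = 4), and the groups overlapped over nearly their whole range.

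*Mrc1* encodes the mannose receptor CD206, which some endothelial cells also make. Its level was 6.004, 1.90, 1.36 and 0.424 FPKM in the rFGF4-treated mice and 0.441, 0.897, 0.301 and 4.93 FPKM in the vehicle-treated mice, with rFGF4 mouse 3 ahead of vehicle mouse 3. *Msr1*, scavenger receptor A, had 3.17, 0.842, 0.0400 and 0.0682 FPKM with rFGF4 and 0.0162, 0.967, 0.0802 and 2.45 FPKM with vehicle. It was the least abundant gene and had the widest range, 196-fold, and as FPKM carry no read counts, the counting error of its low values is not known. *Trem2*, a receptor for lipids and cell debris, had 6.70, 0.939, 0.206 and 0.449 FPKM with rFGF4 and 0.133, 0.793, 0.121 and 5.66 FPKM with vehicle. Outside the top pair of kidneys it stayed below 1 FPKM.

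In the order of their mean levels per length, the genes were *Lyz2*, *C1qb*, *C1qa*, *C1qc*, *Cd68*, *Csf1r*, *Adgre1*, *Mrc1*, *Trem2* and *Msr1*. *Lyz2* exceeded *C1qb*, *C1qa* exceeded *C1qc*, *C1qc* exceeded *Cd68* and *Csf1r* exceeded *Adgre1* in 8 of 8 libraries. *Adgre1* exceeded *Mrc1* and *Trem2* exceeded *Msr1* in 7 of 8. The neighbours *C1qb* and *C1qa* (6 of 8) and *Mrc1* and *Trem2* (5 of 8) changed places between kidneys. *Cd68* exceeded *Csf1r* only in rFGF4 mouse 1 and vehicle mouse 5, 2 of 8 libraries, and these set its higher mean.

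The comparison of the groups asks whether rFGF4 changed the macrophage transcripts of the diabetic kidney, and no macrophage gene differed by more than the spread between mice. With limma on the log2(FPKM + 1) scale, the fitted difference was above 0 in 10 of 10 genes, as in 67.1% of all tested genes. It ran from 0.05 for *Msr1* to 0.70 for *C1qb*, with a median of 0.43 beside a median of 0.09 over all tested genes. The unadjusted p lay between 0.499 (*Mrc1*) and 0.930 (*Msr1*), and the adjusted p between 0.940 and 0.992 (limma, Benjamini-Hochberg over all tested genes). Two-sided exact permutation tests gave p from 0.543 to 0.914, where 4 mice against 4 cannot go below 0.0286.

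The study's methods call a gene whose unadjusted p is under 0.05 and whose fold change reaches 1.5 or falls to 0.67, and by these criteria limma called 0 of the 10 macrophage genes and 1.52% of all tested genes. The fold change here was that of FPKM + 1, unlike in the study's count model, and is smaller for genes of low level. With 0.1 added in place of 1, 348 genes in place of 231 were called, with 0 of the 10 macrophage genes. An unadjusted p under 0.05 alone was reached by 0 of 10 and by 4.62% of all tested genes. An adjusted p under 0.05 was reached by 0 of 10 and by 0.0% of all tested genes. The groups did not overlap for 0 of 10 macrophage genes and for 3.33% of all tested genes. Of the variance of the macrophage genes on the log2 scale, between 0.102% (*Msr1*) and 5.81% (*Mrc1*) lay between the groups.

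The 95% intervals of these differences were wide. For *C1qb* the interval ran from -1.89 to 3.29 on the log2(FPKM + 1) scale around a difference of 0.70 (standard error 1.13). For *Lyz2* it ran from -2.85 to 3.73, for *Cd68* from -2.27 to 2.97 and for *Adgre1* from -1.22 to 2.08. The interval of *Trem2* ran from -1.49 to 1.88 and that of *Msr1* from -1.19 to 1.29. *Csf1r* had the narrowest, from -0.87 to 1.37 around 0.25 (standard error 0.49). A rise by 1 on this scale lay within the interval of all 10 genes, and a fall by 1 within that of 8 genes, the exceptions being *Csf1r* and *Mrc1* (-0.95 to 1.79).

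**Figure D2:**
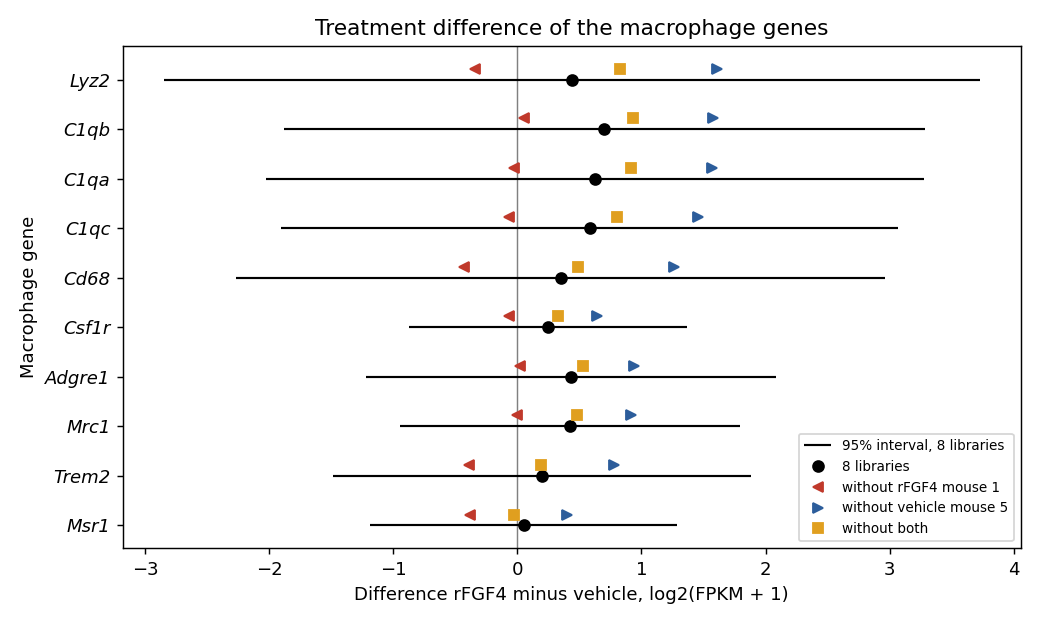
Difference between rFGF4-treated and vehicle-treated mice on the log2(FPKM + 1) scale for each macrophage gene (black points) with its 95% interval from limma (black lines), and the difference after leaving out rFGF4 mouse 1 (red), vehicle mouse 5 (blue) or both (orange). Every interval crosses 0, and each estimate is lower without rFGF4 mouse 1 and higher without vehicle mouse 5.

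Leaving out a single mouse could turn the sign of the difference in every gene but *C1qb*, which stayed at 0.06 to 1.58. In some genes the turned value was near 0, as for *Mrc1* (-0.006) and *Adgre1* (-0.011). Without rFGF4 mouse 1, 8 of the 10 genes were lower in the rFGF4 group, with *Cd68* at -0.43, *Lyz2* at -0.35 and a median of -0.07. Without vehicle mouse 5 all 10 were higher, with *Lyz2* at 1.61, *C1qb* at 1.58 and a median of 1.10. Without vehicle mouse 2, 5 of 10 genes were lower with rFGF4, and without vehicle mouse 4, 4 of 10. Leaving out both rFGF4 mouse 1 and vehicle mouse 5, an alternative chosen after seeing the data, gave a median of 0.51 with 9 of 10 genes higher and *Msr1* at -0.03. Array weights, by which limma counts less variable libraries more, gave a median of 0.83, with *C1qb* at 1.39 and *Lyz2* at 1.31, and a lowest unadjusted limma p of 0.146. A pseudocount of 0.1 gave a median of 0.60. Scaling the libraries to a common median ratio moved the median of all tested genes from 0.09 to -0.01 and left 9 of 10 macrophage genes above 0, the exception again being *Msr1*. The unadjusted p was 0.101 or more for all 10 genes in all 16 alternatives computed.

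The spread of the macrophage genes was large compared with other genes. Their SD within the groups on the log2(FPKM + 1) scale ran from 0.801 (*Csf1r*) to 2.38 (*Lyz2*), and the median over all tested genes was 0.275. Ranked by this SD among the 15150 genes, *Lyz2* stood at 60, *C1qa* at 127, *Cd68* at 136, *C1qb* at 138 and *C1qc* at 148. The lowest of the 10, *Csf1r*, stood at 1135. Between the highest and the lowest kidney the median tested gene differed by 2.21-fold.

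The 10 genes moved together from kidney to kidney. Pearson's r between members on the log2(FPKM + 1) scale over 8 libraries ran from 0.880 (*Adgre1* with *Trem2*) to 0.997 (*C1qa* with *C1qc*) in the 45 pairs, with a median of 0.964 and a median Spearman's rho of 0.929. Over the 6 libraries other than rFGF4 mouse 1 and vehicle mouse 5, the median r was 0.925 and the lowest 0.586 (*Mrc1* with *Msr1*). These values are descriptions of points that share a library and its cell makeup. The pattern was not particular to macrophage genes, since 1803 of 13190 other tested genes with a mean of at least 1 FPKM, or 13.7%, had an r of 0.9 or more with the mean profile of the 10.

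Among the genes most like this profile over the 8 libraries were *Casp4*, *Bcl2a1b*, *Pik3r5*, *Nckap1l*, *Fam111a*, *Cd44* and *Ppp1r18*, with r between 0.995 and 0.997. *Casp4*, an inflammatory caspase, led the order with 7.04, 3.06, 0.783 and 0.511 FPKM in the rFGF4-treated mice and 0.199, 1.96, 0.326 and 6.16 FPKM in the vehicle-treated mice. *Nckap1l* is a cytoskeletal regulator of blood cells, and *Cd44*, the hyaluronan receptor, is made by many cell types. *Bcl2a1b* belongs to a family of near-identical copies, so that its level is uncertain.

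To set the genes beside each other within a kidney, each level was divided by the geometric mean of the C1q genes in the same library. The C1q chains themselves kept near-constant proportions, at 1.13 to 1.48 for *C1qa*, 1.22 to 1.61 for *C1qb* and 0.512 to 0.591 for *C1qc*, in part because each chain enters the mean. The ratio of *Csf1r* was 0.202, 0.290, 0.483 and 0.944 in rFGF4 mice 1, 2, 3 and 5 and 1.15, 0.387, 1.03 and 0.185 in vehicle mice 2, 3, 4 and 5. As C1q is the denominator and varied 22.0-fold against 4.02-fold for *Csf1r*, this ratio had to be high where C1q was low, and its order is no separate observation. The ratio of *Cd68* stayed between 0.187 and 0.383, that of *Lyz2* between 2.84 and 9.21. *Trem2* had ratios of 0.0524, 0.0169, 0.0121 and 0.0543 with rFGF4 and 0.0212, 0.0289, 0.0193 and 0.0411 with vehicle, so that rFGF4 mouse 5, a kidney with little C1q, matched rFGF4 mouse 1. The groups overlapped in the ratios of all 10 genes.

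**Figure D3:**
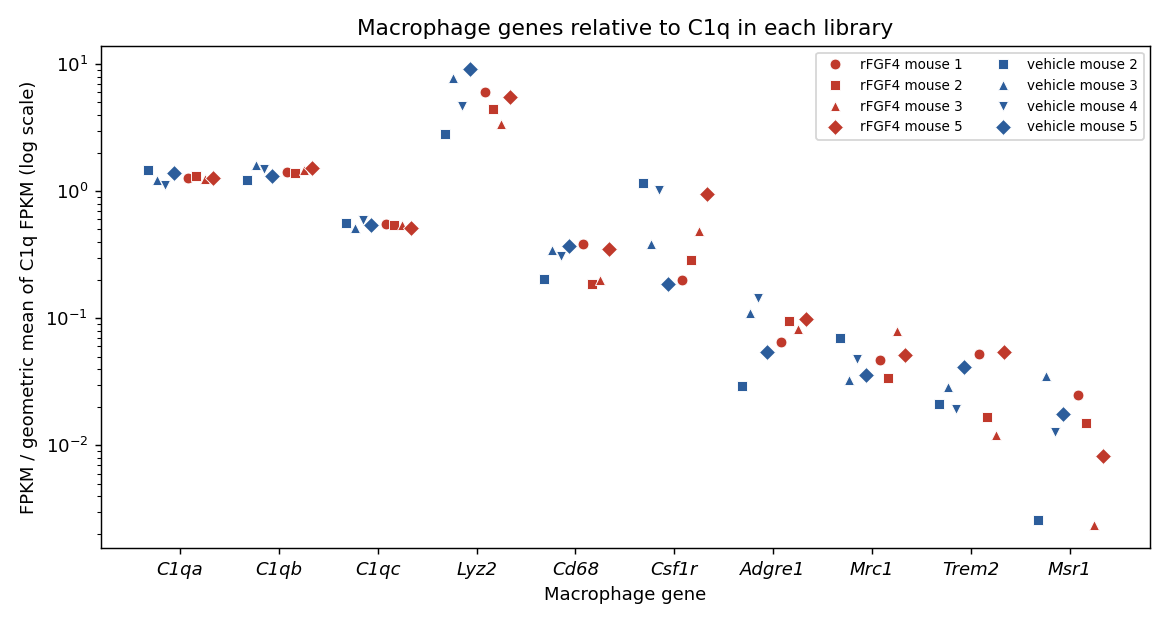
FPKM of each macrophage gene divided by the geometric mean of *C1qa*, *C1qb* and *C1qc* in the same library (log scale), with rFGF4-treated mice in red, vehicle-treated mice in blue and the mouse number given by the symbol. The C1q chains keep nearly fixed proportions, while *Csf1r* spreads over 6.24-fold and *Msr1* over 15.0-fold.

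As the members moved together, the promoters of 4 of them are shown, 3 with and 1 without a short motif that myeloid promoters often carry. RefSeq promoter windows (GRCm38.p6, from 250 bases before to 50 after the start) were found for 6 of the 10 genes. The letters GAGGAA, a core bound by PU.1 and other ETS factors, were searched on both strands and occurred in 5 of these 6 windows (*C1qb*, *C1qc*, *Cd68*, *Mrc1* and *Trem2*) and in 28.3% of all 32851 windows. The window of *Lyz2*, the most abundant of the 10 genes, held neither these letters nor the AP-1 motif. The AP-1 motif TGANTCA occurred in *Cd68* and *Trem2* and in 7.81% of all windows. The sequences run 5′ to 3′ along the gene, with GAGGAA or its reverse complement TTCCTC in capitals. A match gives the letters only and not binding.
C1qb promoter (chr4:136886151-136886450, minus strand): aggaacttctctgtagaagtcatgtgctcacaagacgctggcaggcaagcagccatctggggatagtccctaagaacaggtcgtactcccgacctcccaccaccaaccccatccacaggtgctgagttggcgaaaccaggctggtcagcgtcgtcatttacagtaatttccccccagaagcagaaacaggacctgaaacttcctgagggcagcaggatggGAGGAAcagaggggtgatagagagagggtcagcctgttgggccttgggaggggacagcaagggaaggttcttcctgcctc
Cd68 promoter (chr11:69666121-69666420, minus strand): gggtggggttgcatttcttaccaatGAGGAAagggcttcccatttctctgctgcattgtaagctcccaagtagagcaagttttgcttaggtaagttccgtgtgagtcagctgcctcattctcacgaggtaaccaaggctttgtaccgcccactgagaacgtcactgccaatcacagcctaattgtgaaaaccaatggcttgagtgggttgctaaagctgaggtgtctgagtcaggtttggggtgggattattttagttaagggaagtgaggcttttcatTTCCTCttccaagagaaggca
Lyz2 promoter (chr10:117282223-117282522, minus strand): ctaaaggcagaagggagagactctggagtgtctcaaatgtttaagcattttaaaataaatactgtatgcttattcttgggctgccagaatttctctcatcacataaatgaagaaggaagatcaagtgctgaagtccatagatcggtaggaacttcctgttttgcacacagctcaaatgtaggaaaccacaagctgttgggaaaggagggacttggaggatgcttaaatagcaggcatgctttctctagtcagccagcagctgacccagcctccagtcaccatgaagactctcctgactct
Trem2 promoter (chr17:48346151-48346450, plus strand): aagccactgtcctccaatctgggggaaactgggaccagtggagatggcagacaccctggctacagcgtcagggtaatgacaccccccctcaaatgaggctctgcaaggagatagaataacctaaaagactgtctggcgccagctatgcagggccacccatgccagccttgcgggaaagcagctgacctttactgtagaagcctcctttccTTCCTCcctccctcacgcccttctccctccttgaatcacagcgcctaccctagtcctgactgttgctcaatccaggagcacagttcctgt

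The genes around the macrophage markers were described with 7 further lists, of which 69 of 81 genes were tested. Of the CSF1 receptor ligands and myeloid transcription factors, 1 of 9 tested genes had an unadjusted p under 0.05, and the median difference was 0.34, or 0.15 without rFGF4 mouse 1 and 0.60 without vehicle mouse 5. The ligand *Il34* had 72.0, 16.4, 16.3 and 4.20 FPKM with rFGF4 and 2.78, 9.04, 2.85 and 13.2 FPKM with vehicle, a difference of 1.44 (limma p = 0.102, exact permutation p = 0.143) in which rFGF4 mouse 1 stood far above the rest. *Spi1*, the gene of PU.1, had 7.60, 3.64, 1.31 and 1.15 FPKM with rFGF4 and 0.965, 3.58, 0.851 and 11.4 FPKM with vehicle, with the same 4 kidneys on top as for most macrophage genes. The gene past p = 0.05 was the transcription factor *Maf*, at 19.2 ± 1.40 FPKM (SD, n = 4) with rFGF4 and 15.4 ± 1.84 FPKM (SD, n = 4) with vehicle (limma p = 0.0333, adjusted p = 0.918, exact permutation p = 0.0571), and its p was under 0.05 in 7 of 16 alternatives. *Maf* varied only 1.57-fold between kidneys, and which cells made it was not tested.

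Of the other myeloid receptors and adaptors, 12 of 13 tested genes were fitted above 0, with a median of 0.35 that became -0.18 without rFGF4 mouse 1 and 0.99 without vehicle mouse 5. *Tyrobp*, the signalling adaptor of TREM2, had 84.2, 33.8, 11.8 and 8.30 FPKM with rFGF4 and 4.14, 30.4, 6.14 and 93.9 FPKM with vehicle (limma p = 0.695, exact permutation p = 0.714). *Fcer1g*, the adaptor of Fc receptors, ranged over 6.19 to 57.6 FPKM with rFGF4 and 3.80 to 73.3 FPKM with vehicle. The 1 gene of the list past this threshold was *Mertk*, a receptor for the uptake of dying cells, with 15.0, 16.6, 19.9 and 15.6 FPKM in the rFGF4-treated mice and 11.2, 8.30, 12.0 and 14.1 FPKM in the vehicle-treated mice. The groups did not overlap, and the top pair of the macrophage genes did not lead here. *Mertk* varied only 2.40-fold between kidneys and stood at 11.2 FPKM in vehicle mouse 2, where *Adgre1* was at 0.184 FPKM. Which cells made it was not tested. The difference of *Mertk* was 0.54 (standard error 0.17, limma p = 0.0123, adjusted p = 0.918), with an exact permutation p of 0.0286, the smallest possible. The p was under 0.05 in 14 of 16 alternatives, and with the libraries at a common median ratio limma gave a difference of 0.42 with a p of 0.0635.

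Of the lysosome and phagocyte effectors, 12 of 13 tested genes were fitted above 0, with a median of 0.19 that became -0.08 without rFGF4 mouse 1 and 0.60 without vehicle mouse 5. *Lgmn*, a lysosomal protease that kidney tubules also make, had 461, 412, 403 and 319.8 FPKM with rFGF4 and 196, 326, 279 and 262 FPKM with vehicle. The groups overlapped only through rFGF4 mouse 5 and vehicle mouse 3, and the difference was 0.60 (standard error 0.20, limma p = 0.0154, adjusted p = 0.918, exact permutation p = 0.0571). It was the 1 gene of the related lists that met the criteria of the study's methods, and its p was under 0.05 in 14 of 16 alternatives. Without both rFGF4 mouse 1 and vehicle mouse 5 limma gave a difference of 0.52 with a p of 0.0543, from 2 fewer mice. *Ctsd*, the protease cathepsin D, ranged over 232 to 631 FPKM with rFGF4 and 228 to 410.4 FPKM with vehicle (limma p = 0.302, exact permutation p = 0.400).

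Of the lipid-associated genes often seen together with *Trem2*, 9 of 10 were tested, with a median of 0.38 that became 0.04 without rFGF4 mouse 1 and 0.59 without vehicle mouse 5. *Spp1*, which encodes osteopontin and is also made by injured tubules, had 10365, 3175, 2445 and 715 FPKM with rFGF4 and 720.2, 5291, 686 and 3212 FPKM with vehicle (limma p = 0.483, exact permutation p = 0.600). *Apoe*, a lipid carrier, had 1019, 238, 261 and 154 FPKM with rFGF4 and 181, 90.0, 70.8 and 871 FPKM with vehicle (limma p = 0.370, exact permutation p = 0.486). The 1 gene past p = 0.05 was *Lipa*, lysosomal acid lipase, at 27.3 ± 3.08 FPKM (SD, n = 4) with rFGF4 and 21.0 ± 4.03 FPKM (SD, n = 4) with vehicle (limma p = 0.0393, adjusted p = 0.918, exact permutation p = 0.0857), and its p was under 0.05 in 9 of 16 alternatives. *Lipa* varied only 1.78-fold between kidneys, and which cells made it was not tested. In the 3 remaining lists 0 genes passed an unadjusted limma p of 0.05. The 11 recruitment genes had a median of 0.36, which was 0.02 without rFGF4 mouse 1 and 0.68 without vehicle mouse 5. Among them the adhesion molecule *Vcam1* was at 0.743 to 55.4 FPKM with rFGF4 and 0.587 to 34.6 FPKM with vehicle, and the chemokine *Cx3cl1* was at 13.9 to 34.3 and 12.2 to 28.8 FPKM. The 10 tested activation genes had a median of -0.10, with -0.49 without rFGF4 mouse 1 and 0.30 without vehicle mouse 5. Among them *Il1b*, an inflammatory cytokine, ranged over 1.31 to 9.16 FPKM with rFGF4 and 0.251 to 24.3 FPKM with vehicle. *Retnla*, a product of alternatively activated macrophages, was highest in vehicle mouse 5 at 40.1 FPKM and was listed at 0 in rFGF4 mouse 5 and vehicle mouse 4. Of the scavenger and tissue-resident genes 4 of 10 were tested, with a median of 0.185 that turned to -0.18 without rFGF4 mouse 1 and 0.29 without vehicle mouse 5, and the scavenger receptors *Cd36* and *Stab1* overlapped between the groups. Over all related lists, the cell type markers described next included, 5 of 123 tested genes (4.07%) had an unadjusted p under 0.05, beside 4.62% of all tested genes. This count was 15 with array weights and, with 1 mouse left out, from 2 (without rFGF4 mouse 3) to 13 (without rFGF4 mouse 5), with 12 without vehicle mouse 5, so it was not stable. The genes of the whole table that met the criteria of the study's methods also moved, from 231 to 490 with array weights. They were 203 without rFGF4 mouse 3, 575 without rFGF4 mouse 5 and 432 without vehicle mouse 5. Whether the lists departed from this background was not tested.

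Markers of other cells moved with the macrophage genes in the libraries that stood apart. The 8 T cell markers summed to 48.1 FPKM in vehicle mouse 5, 19.5 FPKM in rFGF4 mouse 1 and 2.19 to 10.1 FPKM in the other 6 mice. The 8 B and plasma cell markers summed to 23892 FPKM in vehicle mouse 5, mostly from the antibody light chain *Igkc*, 2816 FPKM in rFGF4 mouse 1 and 27.5 to 1462 FPKM in the other 6. The 8 lymph node stroma markers summed to 84.5, 18.7 and 3.51 to 14.0 FPKM. The top pair of kidneys for the macrophage genes thus ranked highest in the sums of these 3 lists too, with vehicle mouse 5 first and rFGF4 mouse 1 next. In the lymph node list, the place of rFGF4 mouse 1 rested largely on *Ltb*, at 9.94 of its 18.7 FPKM. It was also next after vehicle mouse 5 for *Cxcl13* (3.97 FPKM). For *Ccl21a* (3.80 FPKM) it lay below vehicle mouse 3 (6.12 FPKM) and rFGF4 mouse 2 (6.05 FPKM). For *Ccl19* (0.616 FPKM) it lay below vehicle mouse 3 (2.785 FPKM). The lymph node vessel markers *Glycam1* and *Madcam1* were at 0.403 and 0.520 FPKM in vehicle mouse 5, and 3 of the 8 lymph node markers were listed at 0 in 4 or more libraries. In rFGF4 mouse 1 the 6 proximal tubule markers summed to 247 FPKM, against 708 to 1237 in the other 7 mice, and the 5 red blood cell markers to 120.3 FPKM against 437 to 4325. The 10 neutrophil markers, of cells that share *Lyz2*, were highest in vehicle mouse 3 (399 FPKM) and rFGF4 mouse 1 (270.3 FPKM) and lowest in vehicle mouse 2 (3.49 FPKM), with 4 of the 10 listed at 0 in 4 or more libraries. The 8 dendritic cell markers were highest in vehicle mouse 5 (21.8 FPKM) and rFGF4 mouse 1 (15.6 FPKM), and the 8 monocyte markers ranged over 24.4 to 101 FPKM with rFGF4 and 21.2 to 95.7 FPKM with vehicle. The part of these cells in the macrophage gene levels was not tested. The endothelial markers, of cells that can share *Mrc1*, summed to 32.6 to 49.5 FPKM with rFGF4 and 41.3 to 59.4 FPKM with vehicle, and 1 of the 8, the angiopoietin receptor *Tek*, was past p = 0.05, lower with rFGF4 (limma p = 0.0424, adjusted p = 0.918, exact permutation p = 0.0857, under 0.05 in 7 of 16 alternatives). Kidney tissue was present in every library, with the tubular protein *Umod* at 654 FPKM or more.

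**Figure D4:**
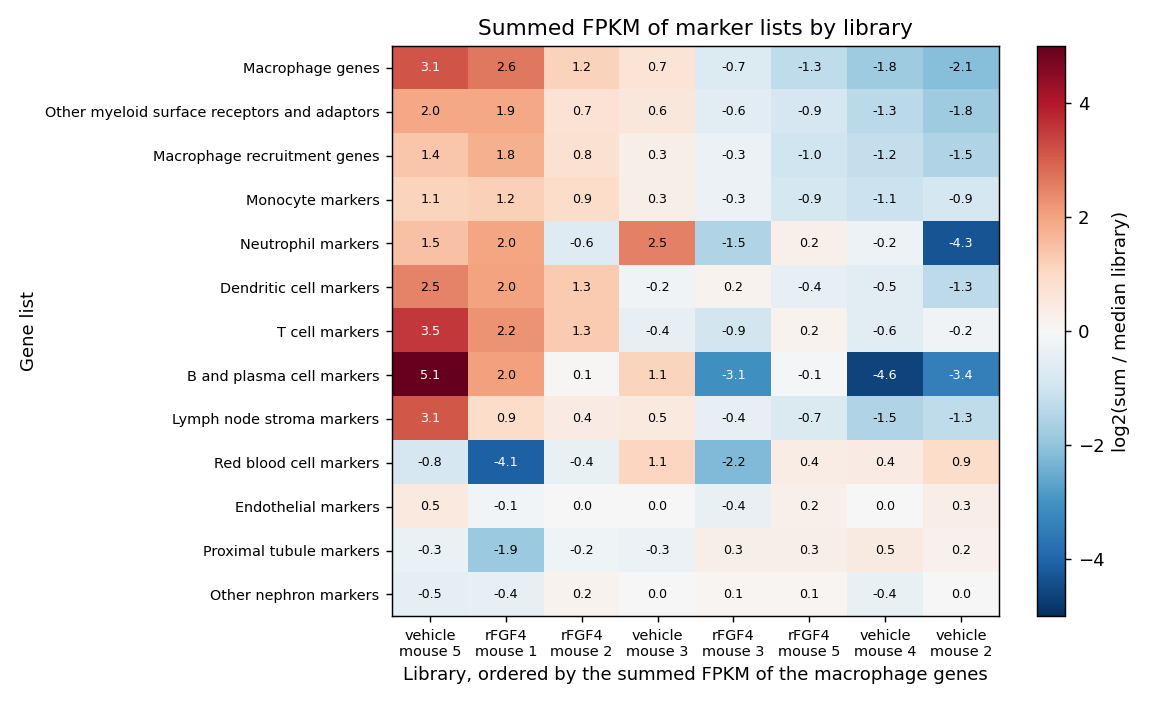
Summed FPKM of the macrophage genes and of 12 other gene lists in each library, as log2 of the ratio to the median library (colour and printed value), with libraries ordered by the macrophage sum. B cell and lymph node markers peak in vehicle mouse 5, which also has the highest macrophage sum, and proximal tubule and red blood cell markers are lowest in rFGF4 mouse 1, which has the next highest.

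The summed FPKM per library ran from 389407 to 552604. The share of mitochondrial transcripts ran nearly opposite to the macrophage genes, at 19.0, 24.7, 29.8 and 36.0% in rFGF4 mice 1, 2, 3 and 5 and 38.4, 34.2, 37.2 and 24.4% in vehicle mice 2, 3, 4 and 5. It was lowest in rFGF4 mouse 1, vehicle mouse 5 and rFGF4 mouse 2 and highest in the 3 kidneys with the lowest macrophage sums, and its part in the macrophage gene levels was not tested. With mitochondrial transcripts removed and the libraries scaled to a common sum, 10 of 10 macrophage genes were fitted above 0 with a lowest unadjusted limma p of 0.429. The number of reads is unknown. Depth relative to vehicle mouse 2, read from the most common ratio of the low FPKM values of the same genes, was 0.908 to 1.12. That ratio was shared by only 80 to 111 of the 1963 to 2606 genes compared, so the depth is a rough estimate.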

How the data were processed

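Poly(A) RNA of 8 kidneys was sequenced in paired ends, and the libraries were grouped by their titles. The FPKM per gene that the authors deposited come from StringTie, run on transcripts joined over libraries by gffcompare, and in them 0.0001 stands in place of 0. The submitters' processing notes name HISAT2 2.0, Bowtie 0.12.2, StringTie 1.3.0 and genome build mm8, without their roles. The authors' own comparison, deposited as a fold change (ratio), its log2 value and p-values with q-values, was not used. As no counts were given, limma on the log scale took the place of the study's count model. Of the gene identifiers, 99.5% were found in GENCODE M21 (GRCm38), which was used for exon overlap only.

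A gene entered the test if 4 or more libraries reached an FPKM of 0.5. The values log2(FPKM + 1) were fitted with limma 3.58.1 (R 4.3.3), whose prior variance followed the mean level, and p-values were adjusted by Benjamini-Hochberg over all tested genes. The script was tested on simulated data. Exact permutation tests covered all 70 splits (scipy 1.17.1), and figures used matplotlib 3.10.9. P-values measure the spread between these mice only. The 10 macrophage genes and the lists were chosen with earlier results of these data known. By rule, the text names the macrophage genes, the genes of each related list with an unadjusted p under 0.05, the 2 most abundant tested genes of a list, the 8 genes most alike in profile (of which 1 is not reported here), and markers of other cell types that moved with a result. *Spi1* was named after its values were seen. Alternatives changed the pseudocount (0.1), the filter, the scaling, mitochondrial transcripts, library weights, the variance trend, the fold threshold and a block for the mouse number, and left out each mouse in turn.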

Additional observations from a re-analysis of the deposited data

Results flagged for a closer look

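Samples far from the rest of their group were sought on the FPKM scale with Dixon's ratio, the gap of the extreme sample to its nearest neighbour divided by the range of the group, against Dixon's 95% limit for 4 samples. Of 56 groups examined, 14 passed, where chance gives about 3 in independent groups, and the macrophage genes, which move together, are not independent. Vehicle mouse 5 stood above the other vehicle-treated mice in *Trem2* (0.879), *Mrc1* (0.871), *C1qa* (0.858), *C1qc* (0.852), *Lyz2* (0.844), *Cd68* (0.836) and the sum of the macrophage genes (0.840). rFGF4 mouse 1 stood above the other rFGF4-treated mice in *Trem2* (0.887) and *Cd68* (0.837). On the log2(FPKM + 1) scale, on which the groups were compared, 0 of the 20 groups of macrophage gene values passed.

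Vehicle mouse 5 also stood apart in the summed FPKM of the T cell markers (0.981), the B and plasma cell markers (0.940), the dendritic cell markers (0.908) and the lymph node stroma markers (0.870). rFGF4 mouse 1 stood apart in the summed FPKM of the other nephron markers (0.843), which were at 1137 FPKM there against 1605 to 1692 in the other rFGF4-treated mice.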

How the results depend on the processing

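No macrophage gene passed an unadjusted p of 0.05 under any alternative, and 0 of the 10 genes had groups without overlap under any of them. Leaving out 1 mouse at a time moved the log2 difference over -0.011 to 0.94 for *Adgre1*, -0.429 to 1.263 for *Cd68*, -0.067 to 0.641 for *Csf1r*, -0.028 to 1.57 for *C1qa*, 0.055 to 1.579 for *C1qb*, -0.067 to 1.452 for *C1qc*, -0.42 to 1.607 for *Lyz2*, -0.006 to 0.912 for *Mrc1*, -0.38 to 0.403 for *Msr1*, -0.394 to 0.781 for *Trem2*. The difference turned negative without rFGF4 mouse 1, at -0.429 (*Cd68*), -0.067 (*Csf1r*), -0.028 (*C1qa*), -0.067 (*C1qc*), -0.345 (*Lyz2*), -0.006 (*Mrc1*), -0.38 (*Msr1*) and -0.394 (*Trem2*). It did so without vehicle mouse 2, at -0.011 (*Adgre1*), -0.241 (*Cd68*), -0.42 (*Lyz2*), -0.185 (*Msr1*) and -0.072 (*Trem2*), and without vehicle mouse 4, at -0.119 (*Cd68*), -0.185 (*Lyz2*), -0.155 (*Msr1*) and -0.077 (*Trem2*). *Msr1* was at -0.015 with libraries at a common median ratio and at -0.026 without both rFGF4 mouse 1 and vehicle mouse 5. The other alternatives, namely the pseudocount of 0.1, no filter, mitochondrial transcripts removed, array weights and no variance trend, left 10 of 10 genes higher but not all of the same size. Array weights moved the median of the 10 from 0.43 to 0.83 and put 8 of them more than 1.5 times higher, at 0.838 (*Adgre1*), 0.815 (*Cd68*), 0.468 (*Csf1r*), 1.351 (*C1qa*), 1.392 (*C1qb*), 1.203 (*C1qc*), 1.31 (*Lyz2*) and 0.171 (*Msr1*). The pseudocount of 0.1 gave a median of 0.60 and did so for 4, at 0.801 (*Adgre1*), 0.774 (*Mrc1*), 0.087 (*Msr1*) and 0.541 (*Trem2*). Removal of mitochondrial transcripts did so for *Msr1*, at 0.10. The cause was not tested.

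The mouse numbers 2, 3 and 5 occur in both groups, but nothing ties equal numbers to 1 cage or day, and the deviations of equal numbers correlated at -0.229, -0.155 and -0.393, so they were not taken as pairs. A block for the mouse number compares the groups within these shared numbers only. The libraries of rFGF4 mouse 1 and vehicle mouse 4 therefore do not enter its differences, and an effect of the block cannot be told from their loss. With a replicate block for the mouse number, 10 of 10 macrophage genes were lower with rFGF4, at -0.192 (*Adgre1*), -0.896 (*Cd68*), -0.287 (*Csf1r*), -0.615 (*C1qa*), -0.444 (*C1qb*), -0.536 (*C1qc*), -0.969 (*Lyz2*), -0.246 (*Mrc1*), -0.584 (*Msr1*) and -0.666 (*Trem2*), with a lowest p of 0.322, and 0 related genes had a p under 0.05 in place of 5. Under this block limma gave *Mertk* a difference of 0.61 with a p of 0.0650 and *Lgmn* 0.55 with a p of 0.0947.

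Over all genes, the 231 that met the criteria of the study's methods became 348 with a pseudocount of 0.1, 490 with array weights, 54 with a fold change of at least 2, and between 187 and 575 with 1 mouse left out (the highest without rFGF4 mouse 5, and 432 without vehicle mouse 5). In the related lists the 5 genes with p under 0.05 became 15 with array weights and 2 (without rFGF4 mouse 3) to 13 (without rFGF4 mouse 5) with 1 mouse left out, and 12 without vehicle mouse 5. The cause was not tested. Without counts, depth sets an unknown limit on the low values of *Msr1*, *Trem2* and *Adgre1*.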
